A study of Mus musculus with 20 samples.

Results

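The genes of the hypoxia response and of glycolysis were followed in 20 tumours grown in the caecum of C57BL/6J mice from 5 mouse tumour organoid (MTO) lines. The set held 36 genes chosen for their known function: 18 of glucose uptake, glycolysis and lactate handling, and 18 other genes induced by low oxygen. Each gene was read from the probe set of highest mean among those annotated with 1 gene symbol, and 32 of the 36 genes had such a probe set, out of 17097 genes on the array. All 32 passed the filter on dim genes that left 15556 genes for testing. Pgam1, Eno1, Gpi1 and P4ha1 were not analysed here, Pgam1 because its probe set carried several symbols. Ero1l is written under its current symbol, Ero1a.

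Of the 4 tumours per line, 2 came from control mice and 2 from mice given galunisertib, a kinase inhibitor of the type I TGF-beta receptor, as the treatment label LY was read. The dose was 10 mg by gavage, 2 times per day, from day 11 until the mice were killed at week 5. What the control mice received is not given in the sources used here. MTO68 and MTO93 were parental lines labelled LAKTP, MTO140 was a LAKTP line labelled LiM, MTO54 was parental LAKP and MTO207 parental LAKT. The labels spell out neither the genotype letters nor LiM. MTO140 spheroids, grown for 3 days, were injected under the caecal serosa in 30% basement membrane extract, whereas the other 4 lines were first grown under the skin and 1 mm3 pieces were placed on the caecum tip. MTO140 thus differed from the parental lines in its route of implantation as well as in its label. LAKP and LAKT were represented by 1 line each, and by the design text every array strip carried 2 control and 2 treated tumours, so a strip cannot be told apart from its line.

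RNA came from whole fragments that hold tumour and host cells, in which fewer cells of a type and less RNA per cell cannot be told apart. The epithelial markers Epcam (9.65 to 11.59 on the log2 scale) and Krt8 (10.65 to 11.63) lay above the array medians (4.93 to 5.12) in every tumour, as did the fibroblast gene Col1a1 (10.00 to 12.38). Other markers of these lists were near or below those medians in some tumours, such as Lgals4 (from 4.79) and Vil1 (from 5.29) of the epithelium, or in all of them, such as Pdgfra (3.66 to 4.05) of fibroblasts. The labels call the 2 tumours of a group biological replicates and give them no number, so the numbers used here only name tumours. The array of MTO68 control 2 stood apart from the rest of its line. The SD of its values over all probe sets was 1.47, against 1.76 to 1.82 for the other MTO68 arrays, although MTO207 control tumours had an SD of 1.46. Its epithelial, fibroblast and endothelial marker scores were all low (-0.78, -0.64 and -0.50, each the mean centred log2 value of the list). Counts of called genes and score differences that rest on this tumour are given with and without it. Differences of single genes between lines are given only with it. These include Slc2a1, Car9, Egln3 and Ndrg1, for which it was the lowest parental LAKTP tumour.

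Cells sense oxygen through prolyl hydroxylases (the Egln genes), which mark the HIF alpha subunits for destruction by the von Hippel-Lindau protein when oxygen is present. When oxygen falls, HIF alpha is stable, pairs with ARNT and binds short DNA words of the form ACGTG or GCGTG near its target genes. The targets raise glucose import, glycolysis and lactate export, hold back pyruvate from the mitochondria, buffer acid and call in blood vessels. In tumours of the bowel the programme is a familiar mark of poorly perfused tissue, and much of it can also be driven by growth signals without hypoxia.

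Stretches upstream of 5 of these genes are shown because the results below turn on them: Car9 and Aldoc have the largest shares of variance between lines, Slc2a1 and Hk2 were higher in MTO140, and Bnip3 had the largest difference in MTO54. Each stretch holds the 250 bases before an annotated transcript start, outside the gene, in the direction of transcription (RefSeq, GRCm38.p6). Capitals mark the word ACGTG, read as CACGT when it lies on the opposite strand, and the word GCGTG, which then reads as CACGC. Where both readings of the first word overlap, they form a palindrome and the run of capitals is longer. The genes are Car9 (chr4:43506776-43507025, plus strand), Slc2a1 (chr4:119108495-119108744, plus), Hk2 (chr6:82774455-82774704, minus), Bnip3 (chr7:138909507-138909756, minus) and Aldoc (chr11:78322823-78323072, plus).
Car9: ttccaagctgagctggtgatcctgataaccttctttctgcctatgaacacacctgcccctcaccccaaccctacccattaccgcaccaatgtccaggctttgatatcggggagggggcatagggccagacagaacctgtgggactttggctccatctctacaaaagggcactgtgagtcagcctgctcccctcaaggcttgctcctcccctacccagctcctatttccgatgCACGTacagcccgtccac
Slc2a1: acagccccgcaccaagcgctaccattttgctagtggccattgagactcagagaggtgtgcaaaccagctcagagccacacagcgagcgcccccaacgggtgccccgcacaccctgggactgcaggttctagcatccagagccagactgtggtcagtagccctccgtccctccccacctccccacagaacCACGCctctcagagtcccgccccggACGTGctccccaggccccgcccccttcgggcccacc
Hk2: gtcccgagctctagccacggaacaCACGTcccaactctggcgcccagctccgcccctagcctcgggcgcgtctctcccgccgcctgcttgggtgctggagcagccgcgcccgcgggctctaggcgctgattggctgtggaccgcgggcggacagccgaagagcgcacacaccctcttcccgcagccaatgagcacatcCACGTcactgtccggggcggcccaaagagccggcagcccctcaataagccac
Bnip3: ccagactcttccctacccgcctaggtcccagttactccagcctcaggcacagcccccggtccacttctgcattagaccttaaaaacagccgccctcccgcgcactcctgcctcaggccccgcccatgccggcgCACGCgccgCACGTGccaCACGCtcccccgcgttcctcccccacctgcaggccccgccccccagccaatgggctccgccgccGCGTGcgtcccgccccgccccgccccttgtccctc
Aldoc: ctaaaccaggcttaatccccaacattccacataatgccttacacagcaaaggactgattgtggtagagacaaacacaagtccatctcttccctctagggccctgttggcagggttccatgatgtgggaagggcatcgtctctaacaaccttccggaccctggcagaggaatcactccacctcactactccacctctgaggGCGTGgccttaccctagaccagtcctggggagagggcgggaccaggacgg

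The single marked word of Car9 began 18 bases before the start and that of Aldoc 50 bases before it, whereas the Bnip3 stretch held 5 such words between 117 and 35 bases before the start. RefSeq windows were found for 28 of the 32 genes, with none for Slc2a3, Bnip3l, Ndrg1 and Bhlhe40. At least 1 of the words lay in a window of 27 of the 28 genes (96.4%), and Tpi1 was the gene with neither in its window. Of all 27025 genes with a window, 41.5% held 1 or both words. ACGTG was found for 64.3% of the 28 genes and 18.5% of all genes, and GCGTG for 71.4% and 30.9%. Per window of the same length, 81.4% of the 43 windows of these genes and 38.6% of all 32851 windows held a word. The genes were chosen for their known response to hypoxia, and a match is a description of the sequence, not a binding site.

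To follow the genes together, a score was taken per tumour as the mean over the 32 genes of each log2 value minus that gene's mean over 20 tumours. The score ran from -0.89 in MTO68 control 2 to 0.69 in MTO140 galunisertib 2. All 4 MTO140 tumours were above 0, at 0.60 and 0.43 in control tumours and 0.29 and 0.69 in treated ones. All 4 MTO207 tumours were below 0, at -0.56 and -0.25 in control tumours and -0.24 and -0.10 in treated ones. MTO54 was split by treatment, with 0.38 and 0.20 in control tumours and -0.36 and -0.46 in treated ones. In MTO93 the control tumours had 0.15 and -0.30 and the treated ones -0.32 and -0.22. In MTO68 the other 3 tumours had 0.32, 0.25 and 0.37, close to one another and far from control 2. The SD within groups was 0.32 when pooled over the 10 groups, a value that MTO68 control 2 enlarges.

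**Figure D1:**
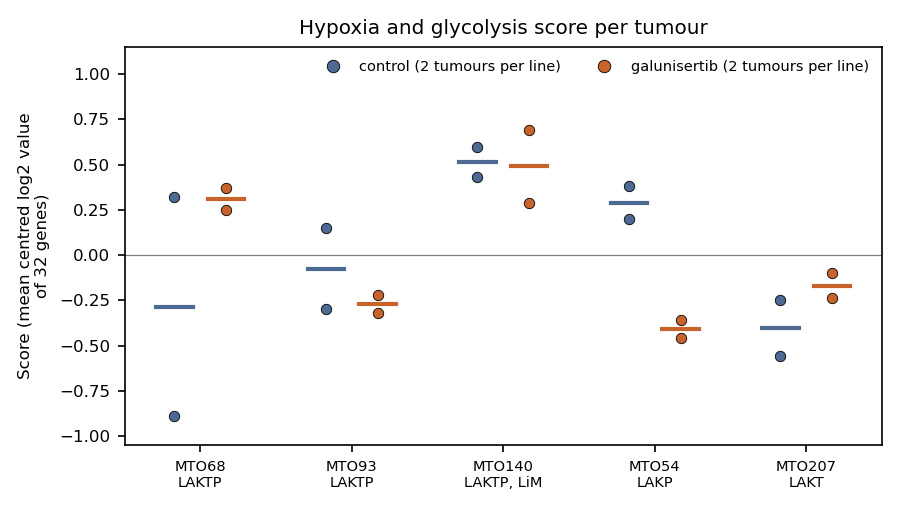
Score of the 32 hypoxia and glycolysis genes (mean centred log2 value, vertical axis) in each of 20 tumours, by organoid line, with points for tumours and bars for the mean of 2 tumours. The 4 MTO140 tumours lie between 0.29 and 0.69, the MTO54 control and treated tumours do not overlap, and MTO68 control 2 is lowest at -0.89.

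Both branches of the set followed the same outline. For the 15 measured genes of glucose handling, the line mean was 0.34 ± 0.14 in MTO140 (SD, n = 4 tumours) and -0.16 ± 0.15 in MTO207. For the 17 other hypoxia genes it was 0.64 ± 0.23 in MTO140 and -0.40 ± 0.24 in MTO207. By line mean, MTO140 was the highest line for 24 of the 32 genes and the lowest for none, and MTO207 was the lowest for 16. Counts by line mean were not taken over all genes, so these are not read as particular to the set. The highest single value lay in an MTO140 tumour for 18 genes (56.2%, against 20.1% of all genes tested). The lowest value lay in MTO68 control 2 for 17 genes (53.1%, against 9.23% of all genes).

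**Figure D2:**
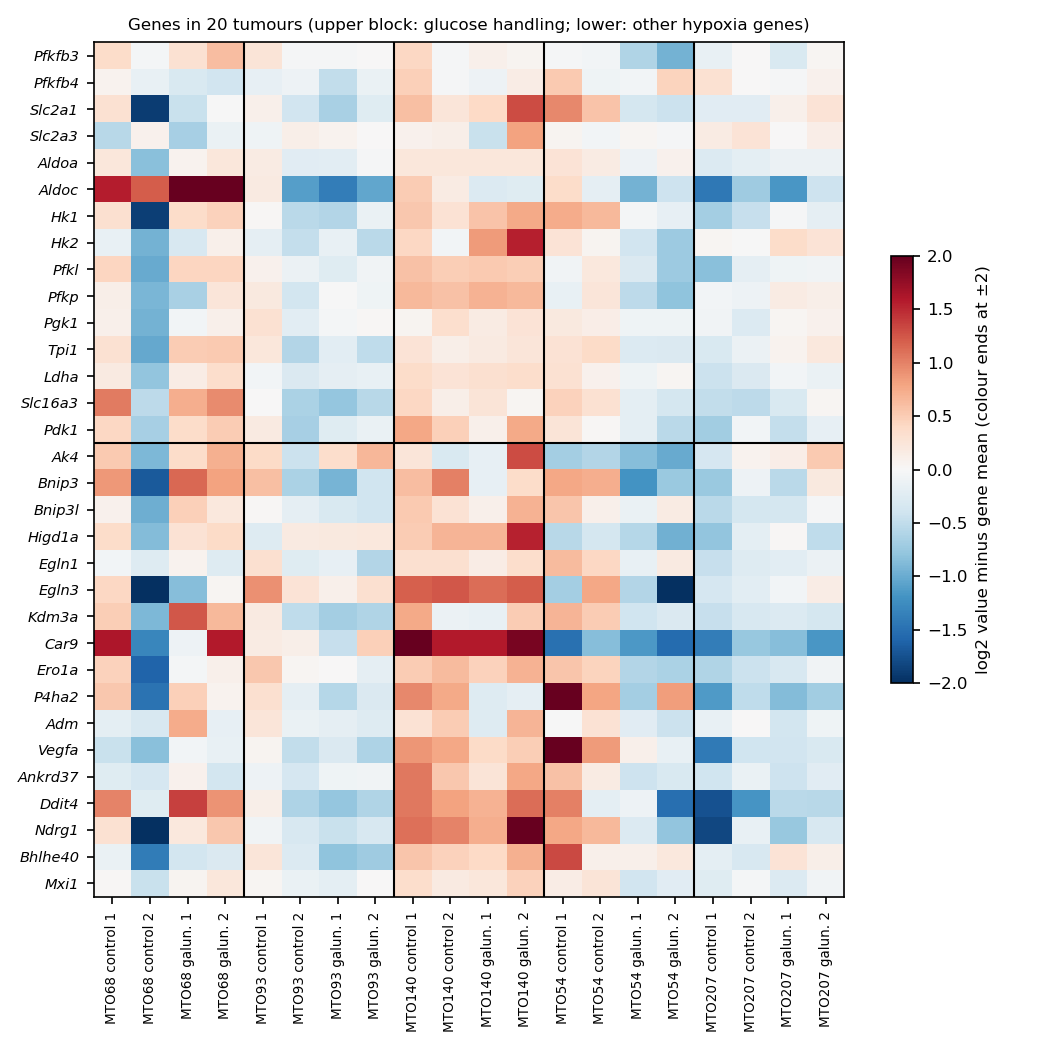
Centred log2 values of 32 genes (rows) in 20 tumours (columns), with glucose handling above the horizontal line and other hypoxia genes below it, and vertical lines between organoid lines. MTO140 columns are mostly red, MTO68 control 2 is mostly blue, and Aldoc is high in all 4 MTO68 tumours.

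The genes were first compared between the 5 lines, over control and treated tumours alike. In limma's F test 16 of the 32 genes (50%) differed between lines with an adjusted p under 0.05 (Benjamini-Hochberg over all 15556 genes), a share near the 55.4% of all genes tested, so that a difference between lines was not a mark of these genes. Line accounted for a median of 43.9% of the variance of the 32 genes and 49.3% of that of all genes. Their spread over the 20 tumours was wider, with a median SD of 0.54 against 0.31. The count of 16, beside 8611 of all genes, became 28 without MTO68 control 2 (11257 of all genes), 26 without MTO68 control 1 (9300) and 10 without MTO140 control 1 (6872). It was 7 with the epithelial score as a covariate (4652 of all genes), and 0 among the control tumours alone, where 27 of all genes passed.

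Car9, a membrane carbonic anhydrase that disposes of acid outside the cell, was among the genes that separated the lines most (adjusted p = 0.00266, limma's F test). Its log2 values in MTO140 were 8.79 and 8.38 in control and 8.38 and 8.68 in treated tumours. In MTO93 they were 6.95 and 6.91 in control and 6.33 and 7.26 in treated tumours. MTO68 was uneven, at 8.41 and 5.48 in control and 6.69 and 8.37 in treated tumours. The MTO54 tumours had 5.30, 5.94, 5.64 and 5.25, and the MTO207 tumours 5.41, 6.03, 5.94 and 5.62, in the same order of control 1 and 2 and galunisertib 1 and 2. All 8 LAKP and LAKT tumours thus lay below every LAKTP tumour except MTO68 control 2. Line accounted for 76.9% of the variance of Car9, and the gene passed the test in all 20 fits that left out 1 tumour (highest adjusted p = 0.00994).

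Aldoc, the aldolase isoform best known from brain, had the largest share of variance between lines, at 81.7% (adjusted p = 4.48e-05, limma's F test). MTO68 had 7.54 and 7.19 in control and 8.41 and 8.82 in treated tumours, above every tumour of the other lines. The next highest was 6.49, in MTO140 control 1, and the MTO93 tumours had 6.16, 4.87, 4.59 and 4.94. Relative to MTO93, MTO68 was higher by 2.85 ± 0.28 (SE), with an adjusted p of 2.25e-05 in limma. A second Aldoc probe set, whose signal was near the level of the filter on dim genes, gave -0.12 for the same difference. In MTO68 control 2, the lowest tumour for 17 of the genes, Aldoc was at 7.19 and above every tumour of the other lines.

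**Figure D3:**
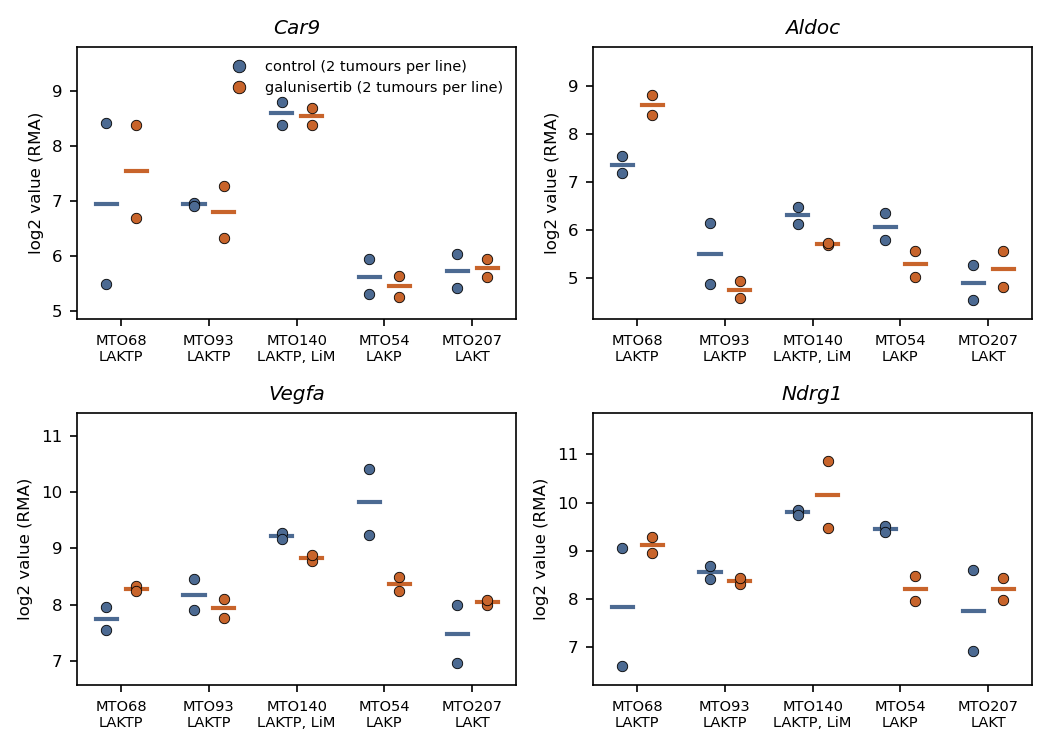
Log2 values of Car9, Aldoc, Vegfa and Ndrg1 in each tumour by organoid line, with points for tumours and bars for means of 2 tumours; each panel has its own vertical axis. Car9 is highest in MTO140 and low in MTO54 and MTO207, Aldoc is highest in MTO68, and Vegfa and Ndrg1 are higher in control than in treated MTO54 tumours.

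MTO140 was then set against the mean of the parental LAKTP lines MTO68 and MTO93, which share its genotype label. Of the 32 genes, 9 passed and all 9 were higher in MTO140 (28.1%, against 13.5% of all genes called and 8.66% called higher). Counting differences of any size, 30 were higher and 2 lower (93.8% higher, against 43.8% of all genes), with a median of 0.50 for the 32 genes and -0.05 for all genes. In 8 genes every MTO140 tumour lay above all 8 parental tumours (25%, against 3.77% of all genes), and the number was also 8 when MTO68 control 2 was left out (3.82% of all genes). These 8 were Ankrd37, Bhlhe40, Egln3, Higd1a, Ndrg1, Pfkl, Pfkp and Vegfa.

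Among the genes of glucose handling, Slc2a1, the main glucose transporter of most proliferating cells, had 10.65 and 10.28 in MTO140 control tumours and 10.44 and 11.35 in treated ones. The 8 parental LAKTP tumours ran from 8.15 to 10.35, the highest of them above MTO140 control 2, so the groups overlapped. The difference was 1.04 ± 0.31 (SE, adjusted p = 0.0392, limma). Hk2, the hexokinase that traps glucose in many tumours, had 8.66 and 8.19 in MTO140 control tumours and 9.09 and 9.79 in treated ones, against 7.30 to 8.34 in the parental tumours. It was higher by 1.02 ± 0.19 (adjusted p = 0.00352, limma). The platelet-type phosphofructokinase Pfkp ran from 10.23 to 10.34 in MTO140 and from 8.74 to 9.89 in the parental tumours, a difference of 0.82 ± 0.20 (adjusted p = 0.016, limma). Of the 15 genes of glucose handling, 3 passed and 13 were higher at any size. Ldha, which makes lactate, was at 0.42 and Pgk1, whose step yields ATP, at 0.29, and neither passed.

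Ldha is an example of a small spread. Its values in MTO140 lay between 11.82 and 11.92, whereas MTO68 had 11.73, 10.77, 11.70 and 11.91 and MTO93 had 11.27 to 11.50. The MTO207 tumours had 11.13 to 11.49. Pgk1 lay between 10.80 and 11.08 in MTO140, between 10.48 and 10.84 in MTO207 and between 10.54 and 11.05 in MTO93. The MTO68 tumours had 10.85, 9.80, 10.70 and 10.85, so the lines overlapped.

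Among the other hypoxia genes, Ndrg1, a stress-induced gene of differentiating cells, had 9.85 and 9.74 in MTO140 control tumours and 9.47 and 10.86 in treated ones. The parental LAKTP tumours had 6.61 in MTO68 control 2 and 8.30 to 9.29 otherwise. The difference was 1.51 ± 0.40 (SE, adjusted p = 0.0249, limma). Car9, with the values above, also differed by 1.51 (SE 0.43, adjusted p = 0.035, limma). Vegfa, the main growth factor of blood vessels, had 9.27 and 9.16 in control and 8.77 and 8.88 in treated MTO140 tumours, against 7.55 to 8.45 in the parental tumours. Its difference was 0.98 ± 0.22 (adjusted p = 0.0121, limma).

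Ankrd37, a small ankyrin repeat protein gene induced by HIF, had the smallest p of the set in this contrast. It had 7.42 and 6.91 in control and 6.62 and 7.14 in treated MTO140 tumours, against 6.00 to 6.46 in the parental ones, a difference of 0.83 ± 0.15 (adjusted p = 0.00264, limma). Bhlhe40, a transcriptional repressor, ran from 7.88 to 8.20 in MTO140 and from 6.09 to 7.72 in the parental tumours (0.99 ± 0.24, adjusted p = 0.0149, limma). Higd1a, a mitochondrial inner membrane protein, ran from 9.83 to 10.86 against 8.46 to 9.70 (0.79 ± 0.23, adjusted p = 0.0345, limma). Egln3, the oxygen sensor that is itself induced by HIF, lay within 9.73 to 9.85 in MTO140. The parental tumours ran from 6.19 to 9.52, all below MTO140, and the difference of 1.34 ± 0.46 did not pass (adjusted p = 0.0697, limma).

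The LAKP and LAKT tumours are given for comparison with MTO140. In MTO207, Vegfa had 6.97 and 7.99 in control and 8.00 and 8.08 in treated tumours, and Ndrg1 6.92 and 8.59 against 7.98 and 8.43, all below MTO140. Egln3 ran from 8.27 to 8.76 in MTO207 and Slc2a1 from 9.82 to 10.31. Of these, Slc2a1 overlapped MTO140. In MTO54 (control 1 and 2, then galunisertib 1 and 2), Vegfa had 10.41, 9.24, 8.49 and 8.24. In the same order, Slc2a1 had 11.00, 10.61, 9.69 and 9.61, and Ndrg1 9.52, 9.39, 8.47 and 7.95. Control tumours of MTO54 thus overlapped MTO140 in these genes, and MTO54 control 1 was above MTO140 for Vegfa. Egln3, at 7.94, 9.38, 8.03 and 6.03, was below MTO140. Hk2 had 8.52, 8.29, 7.85 and 7.52 in MTO54 and 8.23 to 8.61 in MTO207, and both lines overlapped MTO140. Ankrd37 had 6.95, 6.53, 5.95 and 6.06 in MTO54 and 5.95 to 6.23 in MTO207, and MTO54 control 1 overlapped MTO140. Bhlhe40 had 8.81, 7.58, 7.58 and 7.70 in MTO54 and 7.17 to 7.76 in MTO207, so that MTO54 control 1 was above MTO140. Higd1a ran from 8.36 to 8.97 in MTO54 and from 8.54 to 9.35 in MTO207, with every value below MTO140.

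**Figure D4:**
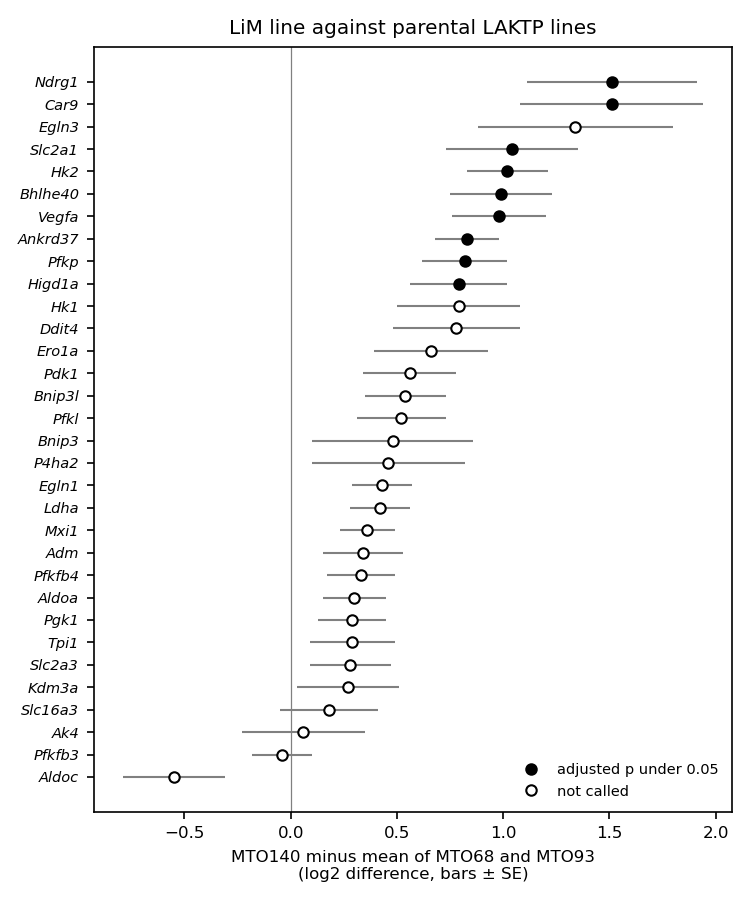
Difference between MTO140 and the mean of MTO68 and MTO93 for each of 32 genes (log2, bars ± SE), with filled points for an adjusted p under 0.05. The 9 filled points lie between 0.79 and 1.51, and Aldoc, at -0.55, and Pfkfb3 are the genes below 0.

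The 9 calls were sensitive to single tumours. Ankrd37 and Hk2 were called in all 20 fits that left out 1 tumour, Slc2a1 in 8 of them (highest adjusted p = 0.183, limma), and Car9 and Higd1a in 13 each. The count was 2 without MTO140 control 1 (602 of all genes), 2 without MTO140 galunisertib 2 (853), 12 without MTO68 control 2 (2142) and 23 without MTO68 control 1 (5928), where all 20 arrays gave 2095. With the second probe set of a gene, Slc2a1 was at 1.22 and Vegfa at 0.72, and neither passed (adjusted p = 0.0616 and 0.0509, limma). Mxi1 at 0.94 and Bnip3l at 0.95 did (adjusted p = 0.0171 and 0.0465, limma), and the count was again 9. Genes with 1 probe set kept it in this setting. Car9, Hk2, Ndrg1, Ankrd37 and Bhlhe40 were among them, so the equal count is not a check by other probe sets. With the mean of a gene's probe sets the count was 11, with Slc2a1 and Vegfa among the genes that passed (adjusted p = 0.0479 and 0.0149). Among control tumours alone 0 of the 32 genes and 20 of all genes passed.

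Other features of the tissue moved with MTO140. The epithelial score was 0.44 to 0.97 in its tumours and -0.78 to 0.43 in the parental LAKTP tumours, and 12 of 12 epithelial markers were higher, 5 of them past the test. All 8 early response genes, such as Fos, were higher, with 5 past the test. Of 8 endothelial markers 7 were higher and 3 passed, and of 10 fibroblast and matrix genes all were higher and 0 passed. All 5 T cell markers were lower, 1 of them past the test. The red cell score was 0.55 to 1.54 in MTO140 and -1.07 to 0.84 in the parental tumours, and the fat score -0.02 to 0.97 and -0.97 to 0.19. With the epithelial score as a covariate 0 of the 32 genes and 170 of all genes passed, and with the SD of each array's values as a covariate 2 of the 32 and 1676 of all did. The part of these features in the result was not tested further.

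Of 51 further tested genes of HIF signalling and carbohydrate use, the wider pathway, 16 passed in MTO140 and all 16 were higher. Of all genes, 13.5% were called and 8.66% called higher. At any size 39 of the 51 were higher (43.8% of all genes). The list mixes genes that act for and against HIF or glycolysis, so a higher value is not a direction of the pathway. Counts without single tumours or with covariates were not taken for this list. The 4 of smallest p were Fbp2, a muscle-type fructose bisphosphatase (1.65 ± 0.16, adjusted p = 6.74e-05), Hkdc1, a hexokinase-like gene (0.72 ± 0.10), Epas1, which encodes the HIF-2 alpha subunit (1.45 ± 0.21), and Stc1, a secreted glycoprotein (0.76 ± 0.13), all by limma.

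Fewer genes separated the other lines. Relative to the parental LAKTP mean, 4 of 32 passed in MTO54 (12.5%, against 5.84% of all genes), with Vegfa higher by 1.06 ± 0.22 and Bhlhe40 by 0.90 ± 0.24. Aldoc was lower (-0.88 ± 0.24), as was Pfkfb3, an activator of glycolysis (-0.59 ± 0.14; adjusted p from 0.0128 to 0.0452, limma). For Vegfa the MTO54 control tumours, at 10.41 and 9.24, lay above all parental tumours, while the treated ones had 8.49 and 8.24 beside a parental range of 7.55 to 8.45. Car9 was at -1.52 ± 0.43 and did not pass (adjusted p = 0.056, limma). Aldoc lost its call with the second probe set (0.01, adjusted p = 0.977, limma) and with the mean of its probe sets (-0.43, adjusted p = 0.0557, limma). Its mean was 5.69 in MTO54, 5.14 in MTO93 and 7.99 in MTO68, so MTO54 was lower than MTO68 but not than MTO93. The counts that follow, without 1 tumour, are of the 32 genes alone. A change in all genes of the fit cannot be told apart from them. The count of 4 was 0 without MTO54 control 1 and without MTO54 galunisertib 2. It was 1 without MTO54 galunisertib 1 and without MTO93 galunisertib 2. It was 2 without MTO54 control 2, MTO68 galunisertib 2, MTO93 control 1 or MTO93 galunisertib 1, 7 without MTO68 control 2 and 9 without MTO68 control 1.

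In MTO207, 2 of 32 genes passed against the parental LAKTP mean, both lower (6.25%, against 7.93% of all genes). They were Aldoc (-1.51 ± 0.24, adjusted p = 0.00452, limma) and Ddit4, an inhibitor of mTOR signalling (-1.15 ± 0.30, adjusted p = 0.0362, limma). The Aldoc mean was 5.05 in MTO207, 5.14 in MTO93 and 7.99 in MTO68. MTO207 was thus close to MTO93, and the difference lay against MTO68. Ddit4 had 5.42 and 5.98 in control and 6.62 and 6.60 in treated MTO207 tumours, against 6.38 to 8.53 in the parental tumours and 7.86 to 8.28 in MTO140. Counts without 1 tumour are again of the 32 genes alone, with no count of all genes beside them. The count was 1 in 8 of the fits without 1 tumour (each of the 4 MTO207 tumours, MTO68 galunisertib 1, MTO93 control 1 and both MTO93 treated tumours). It was 4 without MTO68 control 1 and 13 without MTO68 control 2. Aldoc passed in all 20 of these fits, but not with its second probe set (0.07, adjusted p = 0.496, limma). With the mean of its probe sets it was at -0.72 and passed (adjusted p = 0.0069, limma).

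Between the parental LAKTP lines, 4 of 32 genes passed, all higher in MTO68 than in MTO93 (12.5%, against 33.4% of all genes). Beside Aldoc they were Slc16a3, the lactate exporter (1.03 ± 0.26, adjusted p = 0.0122), Ddit4 (1.22 ± 0.35, adjusted p = 0.019) and Kdm3a, an oxygen-dependent histone demethylase (0.78 ± 0.28, adjusted p = 0.0461, limma). Counts without 1 tumour, here and for MTO54 against MTO207 below, are of the 32 genes alone. The count was 12 without MTO68 control 2, 2 without MTO68 galunisertib 1 or MTO93 galunisertib 1, and 1 without MTO93 control 2. Between MTO54 and MTO207 only Vegfa passed, higher in MTO54 by 1.33 ± 0.26 (3.12%, against 1.27% of all genes; adjusted p = 0.0293, limma). MTO207 control 1, at 6.97, was the lowest of the 20 tumours for Vegfa and MTO54 control 1 the highest. That count was 0 without MTO54 control 1, either treated MTO54 tumour, MTO207 control 1 or either treated MTO207 tumour. It was 2 without MTO54 control 2, and 5 without MTO68 control 1 or without MTO68 control 2.

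In the wider pathway, 2 of 51 genes passed in MTO54 (5.84% of all genes) and 2 in MTO207 (7.93% of all genes). Epas1 and Eno3, the muscle enolase, were higher in MTO54 than in the parental LAKTP mean (1.24 ± 0.21 and 1.25 ± 0.24), and Epas1 and Ldhb were higher in MTO207 (0.79 ± 0.21 and 0.55 ± 0.12). Between MTO68 and MTO93, 8 of 51 passed, 6 higher and 2 lower in MTO68, beside 33.4% of all genes. By smallest p they included Tigar (1.19 ± 0.17), Vhl (0.57 ± 0.12), Epas1 (-1.10 ± 0.25) and Gys1 (0.67 ± 0.18).

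Galunisertib was compared with control over the 5 lines. With the line as a block in limma, 0 of the 32 genes passed (0% of all genes did), and 0 had an unadjusted p under 0.05, against 7.96% of all genes. By sign, 13 were higher and 19 lower in treated tumours (59.4% lower, against 49.7% of all genes), with a median difference of -0.03. The largest were P4ha2, a collagen prolyl hydroxylase, at -0.43 ± 0.29 (SE) and Ak4, a mitochondrial adenylate kinase, at 0.41 ± 0.20. The score differed by -0.02 (0.01 in control and -0.01 in treated tumours, n = 10 each). As the mean of the 5 line differences it was -0.14 without MTO68 control 2 and 0.1 without MTO68 control 1. In the wider pathway 0 of 51 passed. Over the 5 lines all 10 fibroblast and matrix genes, all 6 smooth muscle markers and 7 of 8 endothelial markers were lower in treated tumours. All 12 epithelial and all 5 proliferation markers were higher. None of these markers passed, and their part in the differences was not tested.

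Within single lines the values were unlike. In MTO54, 31 of the 32 genes were lower in treated tumours (96.9%, against 46.8% of all genes) and Slc2a3 was at 0.00. The median difference was -0.63, while that of all genes was 0.02. In 24 genes both treated MTO54 tumours lay below both control tumours (75%, against 16.4% of all genes), and in 0 both lay above (17.8% of all genes). None passed the adjusted test in limma, where 0% of all genes were called, and 14 had an unadjusted p under 0.05, all lower (43.8%, against 1.8% of all genes). The mean score of the MTO54 control tumours was 0.29 and that of the treated ones -0.41 (difference -0.70), and that of the 17 other hypoxia genes was 0.35 and -0.51. Leaving out any 1 tumour gave a score difference between -0.79 and -0.61, and 29 to 31 lower genes.

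**Figure D5:**
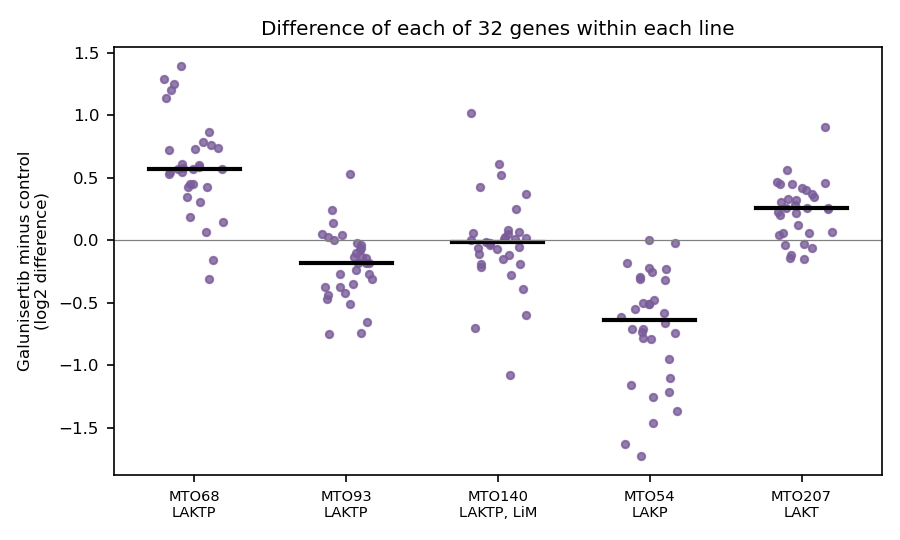
Treated minus control difference (log2) of each of 32 genes within each organoid line, with 1 point per gene and a bar for the median; horizontal scatter has no meaning. The median is -0.63 in MTO54, 0.26 in MTO207, 0.57 in MTO68, -0.18 in MTO93 and -0.01 in MTO140; without MTO68 control 2, 19 instead of 30 genes are higher in MTO68.

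Bnip3, a mitochondrial protein that promotes the removal of mitochondria, is given here for the size of its difference, chosen after its values were seen. It had 9.67 and 9.62 in MTO54 control tumours and 7.70 and 8.16 in treated ones, a difference of -1.72 ± 0.62 (SE). Vegfa had 10.41 and 9.24 against 8.49 and 8.24 (-1.46 ± 0.37), with the smallest unadjusted p of the set in this line, 0.00134. Slc2a1 had 11.00 and 10.61 against 9.69 and 9.61 (-1.16 ± 0.50). Ndrg1 had 9.52 and 9.39 against 8.47 and 7.95 (-1.25 ± 0.65). In these 4 genes the treated and control tumours of MTO54 did not overlap.

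They did overlap in some others. Egln3 had 7.94 and 9.38 in control and 8.03 and 6.03 in treated MTO54 tumours (-1.63 ± 0.75). P4ha2 had 8.92 and 7.61 against 6.15 and 7.66 (-1.36 ± 0.58), and Ddit4 8.17 and 6.96 against 7.06 and 5.65 (-1.21 ± 0.49). Smaller differences were seen in others. Ldha was at 11.86 and 11.64 against 11.46 and 11.59 (-0.22 ± 0.23) and Pgk1 at 10.94 and 10.89 against 10.66 and 10.66 (-0.25 ± 0.26). Car9, low in this line, was at -0.18 ± 0.71. The adjusted p of these genes in limma was 0.999.

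Marker lists also moved between the MTO54 groups. Marker by marker, all 8 of the endothelium were lower in treated tumours, with scores of 0.71 and 0.17 in control and -0.05 and -0.07 in treated tumours, and all 7 macrophage markers were lower. Of 10 fibroblast and matrix genes 9 were lower, with scores of 0.99 and 0.33 against -0.08 and 0.11. Of 8 early response genes 6 were lower, with scores of 0.94 and 0.32 against 0.10 and 0.21. Other lists were higher: all 6 smooth muscle markers, with scores of -0.28 and 0.60 against 1.02 and 0.34, and all 5 T cell markers, with -0.48 and -0.30 against 0.15 and -0.15. Of 12 epithelial markers 7 were higher, with scores of -0.94 and -0.33 against 0.14 and -0.50. The array SDs were 1.72 and 1.60 against 1.62 and 1.61. None of these markers passed in MTO54, and their part in the difference was not tested.

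In MTO207, 26 of the 32 genes were higher under galunisertib (81.2%, against 45.8% of all genes), the median difference being 0.26, and 0 passed (0% of all genes did). In 18 genes both treated tumours lay above both control tumours (56.2%, against 26.3% of all genes). The score difference was 0.24. Without MTO207 control 1 it was 0.08 and 19 genes were higher, and without MTO207 control 2 it was 0.39 and 29 were higher. None had an unadjusted p under 0.05 (7.53% of all genes did), and the largest were Ddit4 at 0.91 ± 0.49 and Vegfa at 0.56 ± 0.37. The early response scores were -0.67 and -0.51 in control and -0.06 and -0.14 in treated tumours, and all 5 proliferation genes were higher. Of 12 epithelial markers 11 were higher, with a median difference of 0.45 and scores of -0.96 and -0.20 in control and 0.13 and -0.36 in treated tumours, and 6 of 7 macrophage markers were higher. All 5 T cell and all 5 neutrophil markers were lower. The array SDs were 1.46 in both control tumours and 1.57 and 1.55 in treated ones. The part of these in the result was not tested.

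In MTO68, 30 of the 32 genes were higher under galunisertib (93.8%, against 52.4% of all genes), the median difference being 0.57, and 0 passed (2.01% of all genes did). This rested on control 2: without it 19 genes were higher, and the score difference was -0.01 in place of 0.59, while without control 1 the difference was 1.20 and 24 of the 32 genes and 8323 of all genes passed. Mpc1, a subunit of the mitochondrial pyruvate carrier, was the 1 wider pathway gene that passed (1.39 ± 0.30, adjusted p = 0.0354, limma). In MTO93, 25 genes were lower and 7 higher (78.1% lower, against 46.8% of all genes), with a median of -0.18 and 0 past the test (0% of all genes). Its score difference was -0.20, and 0.03 without MTO93 control 1.

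In MTO140, 15 genes were higher and 17 lower (53.1%, against 48.9% of all genes), and 0 passed (0.00643% of all genes). Hk2 was higher by 1.02 ± 0.30, with no overlap between treated and control tumours and an unadjusted p of 0.00475 (adjusted p = 0.945, limma). Pointing the other way, P4ha2 had 7.79 and 7.59 in control and 6.56 and 6.65 in treated MTO140 tumours (-1.08 ± 0.58). P4ha2 had 7.36 and 5.35 against 7.30 and 6.89 in MTO68 and 7.15 and 6.64 against 6.25 and 6.54 in MTO93, and it ran from 5.69 to 6.32 in MTO207. For the mean effect in the 3 LAKTP lines 0 of the 32 genes passed (0.00643% of all genes). That count changed without MTO68 control 1, in a fit for which no count of all genes is given.

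Whether the effect of galunisertib differed between the 5 lines was tested by limma's interaction F test. None of the 32 genes passed (0.0643% of all genes did), and 6 had an unadjusted p under 0.05 (18.8%, against 8.65% of all genes): Vegfa, Aldoc, Hk2, Kdm3a, Bnip3 and Ddit4. The smallest was 0.00942, for Vegfa, with an adjusted p of 0.563. Without MTO68 control 1 the number that passed was 16, of 2807 genes in all, and it was 0 without any other single tumour. The effects in MTO54 and MTO207 were not tested against each other as a pair.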

How the data were processed

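Per the submitters' processing notes, the deposited log2 expression values were made by the authors with RMA (background correction, quantile normalization, 1 summary per probe set) in affy; versions and other settings are not given here. Of 45141 probe sets, 28898 had 1 gene symbol. The probe set of highest mean stood for a gene, and a gene was tested if it exceeded 4.16, the level of the 25th percentile, on 2 or more arrays. Treatment over 5 lines was fitted by limma 3.58.1 (R 4.3.3) with the line as a block and trended eBayes. Other contrasts came from 10 group means with a shared spread. All adjusted p-values are limma's, two-sided, Benjamini-Hochberg over the 15556 tested genes, and a call is a value under 0.05. In the fits of group means they measure the spread between 2 tumours per group, which limits precision. In the fit over 5 lines the spread also takes in differences between lines in the effect of treatment. The members, lists and contrasts were chosen with earlier results of these data known. Values by tumour, singly or as ranges over a line or the 8 parental LAKTP tumours, are given for the 8 genes of smallest p between lines and for Vegfa, Slc2a1, Car9, Ldha, Egln3, Ndrg1, Pgk1 and P4ha2, and at most 4 genes of the wider pathway are named per comparison. Alternatives were the filter, the probe set, centring, quantile normalization, eBayes without trend, array weights, omitted tumours and lines, control tumours only, the line block, and covariates. The covariates in single line contrasts and the array SD between lines were added after seeing the data. Scores have no test. Plots were drawn with matplotlib 3.10.9.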

Additional observations from a re-analysis of the deposited data

Results flagged for a closer look

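Within lines and within treatments, 105 groups of 4 or 10 values of the score and of single genes were searched for a tumour far from the others (Dixon's criterion), and 12 such values were found, while chance alone gives about 1 in 20 groups. Of these, 7 were in MTO68 control 2. They were its score of -0.89 (0.25 to 0.37 in the rest of the line), Higd1a at 8.46 (9.61 to 9.70), Ndrg1 at 6.61 (8.96 to 9.29) and Pgk1 at 9.80 (10.70 to 10.85 in the line), the last also among all control tumours (10.48 to 11.08). Among all control tumours Slc2a1 at 8.15 (9.66 to 11.00) and Egln3 at 6.19 (7.94 to 9.85) of the same tumour also stood apart. This array also had low epithelial, fibroblast and endothelial scores, and their part was not tested.

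The others were Vegfa at 6.97 in MTO207 control 1 (7.99 to 8.08 in the rest of the line) and Bhlhe40 at 8.81 in MTO54 control 1 (7.58 to 7.70). In MTO93, Ankrd37 was at 6.04 in control 2 (6.27 to 6.30) and Higd1a at 9.07 in control 1 (9.50 to 9.53). Ndrg1 at 10.86 in MTO140 galunisertib 2 stood above the other treated tumours (7.95 to 9.47).

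The score of both treated tumours lay above both control tumours in MTO207 (difference 0.24) and below both in MTO54 (difference -0.70). In MTO207 the groups nearly met, at -0.25 in control 2 and -0.24 in galunisertib 1. The MTO207 difference was smaller than the pooled SD within groups (0.32), and it was 0.08 without control 1. The difference between these score effects was not tested.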

How the results depend on the processing

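Over the 5 lines the count of called genes was 0 under every alternative run. Settings in which a count or score moved follow, beside the value as reported. For MTO140 minus parental LAKTP (9 called) the count was 0 in control tumours only, 0 with the epithelial covariate and 2 with the array SD, and 2 to 23 when 1 tumour was left out. For MTO54 minus parental LAKTP (4) it was 1 with median centring, 0 in control tumours only, 1 with the epithelial covariate, 10 with the array SD and 0 to 9 without 1 tumour. For MTO207 minus parental LAKTP (2) it was 1 with the second probe set, 5 with quantile normalization, 4 with array weights, 0 in control tumours only, 1 with the epithelial covariate and 1 to 13 without 1 tumour. For MTO68 minus MTO93 (4) it was 2 with array weights, 0 in control tumours only and 1 to 12 without 1 tumour. For MTO54 minus MTO207 (1) it was 3 with quantile normalization, 7 with array weights, 0 in control tumours only, 0 with the array SD and 0 to 5 without 1 tumour. Between the 5 lines (16) it was 7 with the epithelial covariate, 0 in control tumours only and 10 to 28 without 1 tumour. Without 1 tumour, calls ran from 0 to 24 within MTO68, 0 to 8 for the LAKTP mean and 0 to 16 for the interaction. The number of genes higher in treated MTO68 tumours ran from 19 to 30. The MTO68 score difference (0.59) was 0.22 with quantile normalization, 1.03 with each gene divided by its SD, and -0.01 to 1.20 without 1 tumour, reversed without MTO68 control 2. The MTO54 score difference was -1.22 with each gene divided by its SD, a change of scale. The second probe set of Aldoc gave 0.01 for MTO54 and 0.07 for MTO207 minus parental LAKTP and -0.12 for MTO68 minus MTO93, the opposite sign of the first (-0.88, -1.51 and 2.85). The cause was not tested in these cases, apart from control tumours only, which leaves fewer samples. Of the fits of single named genes, 4451 were counted as unchanged, 130 lost and 64 gained a call, and 3 called differences reversed. Fits of opposite sign were counted as unchanged wherever the reported difference had not passed, whatever their own p. The 4451 are thus not a count of fits with the same direction. No paired analysis was possible because the labels number no replicates. Signals near 4.16 lie close to background.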
